A study of Homo sapiens with 6 samples.

Results

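APOA4, APOC3, MTTP, SAR1B, SOAT2 and A1CF take part in the assembly and export of lipoproteins, and TTR, a secreted carrier protein, was grouped with them. Transcripts of these 7 genes were followed in Caco-2, a human colon carcinoma cell line with features of absorptive enterocytes. The genes were taken by symbol and were matched by 7 probe sets, 1 per gene, of 16098 named probe sets for 14884 genes. They were chosen by their lower array values with both hairpins than with scramble, so their differences from scramble are a description with no test. The study put total RNA on 6 single-channel Affymetrix arrays. Cells had been infected with lentivirus 17 days earlier and expressed FAM46A-shRNA#2, FAM46A-shRNA#4 or scramble shRNA, with 2 arrays for each short hairpin RNA (shRNA). FAM46A, also called TENT5A, encodes a non-canonical poly(A) polymerase. All 3 groups therefore carried a lentiviral hairpin, and the depletion itself was not analysed here. The titles call the arrays of a group biological replicates, all are of 1 cell line, and it is not stated whether they came from separate infections, so p-values measure the spread between these samples, which may be technical.

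Enterocytes pack dietary fat into chylomicrons. In the endoplasmic reticulum (ER), the microsomal triglyceride transfer protein loads apolipoprotein B with lipid, further apolipoproteins join the particle, and large COPII carriers take it to the Golgi. In the human small intestine the APOB transcript is edited by APOBEC1 with an RNA-binding cofactor, which gives the short apolipoprotein B of chylomicrons. Differentiated Caco-2 cultures are widely used to study this pathway.

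Each deposited value is a log value, taken here as log2, from which the median of the 6 arrays was subtracted for each probe set. A value of 0 is therefore the middle of the arrays and not a level, genes cannot be ranked by abundance, and the presence of a marker cannot be read. The 2 middle arrays of a gene with 1 probe set have values of equal size and opposite sign. Of 13 measured markers of colonic epithelium, 8 fell and 0 rose when both hairpins together were set against scramble (limma, adjusted p under 0.05 over all genes), and 9 had an unadjusted p under 0.05. Their median value lay between -0.0498 and -0.00819 on the hairpin arrays, and was 0.122 and 0.120 on the scramble arrays. Only 5 fell without either shRNA#2 array, and 4 without replicate 2 of shRNA#4 or of scramble. Goblet markers gave 2 falls and 1 rise among 7 measured, with 0 rises when any 1 array was left out and 1 fall without replicate 1 of scramble. Mesenchymal markers gave 1 fall and 1 rise among 4, with 0 falls without any 1 array except replicate 1 of shRNA#4 and 0 rises without replicate 1 of scramble. Of 7 enteroendocrine markers 0 passed in limma and 0 had an unadjusted p under 0.05. Over all genes 10.6% fell and 14.8% rose. The part of these markers in the results below was not tested, and fewer cells of a type and less RNA per cell cannot be told apart in total RNA.

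APOA4 and APOC3, the apolipoproteins, stood farthest below scramble. APOA4, which is carried on chylomicrons and high-density lipoprotein, had log2 values of -0.0507 and -0.0815 with shRNA#2 and of 0.0331 and -0.0331 with shRNA#4, against 2.74 and 3.09 with scramble. The 4 hairpin arrays lay within a narrow band, and the nearest scramble array stood 2.71 above it. The log2 change against scramble was -2.98 ± 0.111 with shRNA#2 and -2.92 ± 0.111 with shRNA#4 (SE of the limma fit, n = 2 arrays per group), which is 7.91-fold and 7.56-fold lower.

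APOC3, an inhibitor of lipoprotein lipase, had log2 values of -0.0672 and 0.0672 with shRNA#2 and of -0.380 and -0.0862 with shRNA#4, against 2.07 and 2.20 with scramble. The lowest values were those of shRNA#4, whose replicates differed by 0.294. The change was -2.13 ± 0.109 with shRNA#2 (4.39-fold lower) and -2.37 ± 0.109 with shRNA#4 (5.16-fold lower).

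SOAT2 and MTTP handle the lipid of the particle core. SOAT2, which esterifies cholesterol in the ER of enterocytes, had log2 values of -0.255 and 0.102 with shRNA#2 and of -0.336 and -0.102 with shRNA#4, against 1.70 and 2.04 with scramble. The arrays of the hairpins overlapped each other, and the highest of them lay 1.60 below the nearest scramble array. The change was -1.95 ± 0.164 with shRNA#2 (3.85-fold lower) and -2.09 ± 0.164 with shRNA#4 (4.25-fold lower).

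MTTP, the lipid-transferring subunit of the microsomal triglyceride transfer protein, had log2 values of 0.0582 and -0.0582 with shRNA#2 and of -0.590 and -0.718 with shRNA#4, against 1.18 and 1.34 with scramble. Unlike those of SOAT2, its values formed 3 separate steps, with shRNA#4 lowest. The change was -1.26 ± 0.0814 with shRNA#2 (2.40-fold lower) and -1.91 ± 0.0814 with shRNA#4 (3.77-fold lower).

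SAR1B is the GTPase that starts the COPII coat around chylomicron cargo, and its loss causes chylomicron retention disease in humans. It had log2 values of -0.0159 and 0.0159 with shRNA#2 and of -0.338 and -0.397 with shRNA#4, against 0.355 and 0.431 with scramble. The 3 groups again stood apart in the same order, over a narrower range than for MTTP. The change was -0.39 ± 0.0534 with shRNA#2 (1.31-fold lower) and -0.76 ± 0.0534 with shRNA#4 (1.69-fold lower).

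A1CF, the APOB mRNA editing cofactor, had log2 values of -0.0235 and 0.0235 with shRNA#2 and of -0.630 and -0.682 with shRNA#4, against 0.272 and 0.167 with scramble. The shRNA#2 arrays lay only 0.144 below the nearest scramble array, the narrowest gap of the 7 genes, and the shRNA#4 arrays lay well below both groups. The change was -0.22 ± 0.0576 with shRNA#2 (1.16-fold lower) and -0.88 ± 0.0576 with shRNA#4 (1.83-fold lower).

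TTR, a secreted carrier of thyroid hormone and of the retinol-binding protein, is no component of the chylomicron. It had log2 values of -0.463 and -0.0563 with shRNA#2 and of -0.344 and 0.0563 with shRNA#4, against 1.24 and 1.52 with scramble. Replicates differed by 0.407 within shRNA#2 and 0.401 within shRNA#4, and the hairpins overlapped each other. The change was -1.64 ± 0.188 with shRNA#2 (3.11-fold lower) and -1.52 ± 0.188 with shRNA#4 (2.87-fold lower).

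All 4 hairpin arrays lay below both scramble arrays for 7 of 7 genes, and this held for 16.7% of all genes. The genes were chosen by these values, so the count supports nothing. The median change of the 7 was -1.64 with shRNA#2 and -1.91 with shRNA#4, beside medians over all genes of -0.00178 and 0.00448. Replicates of the 7 genes differed by a median of 0.128 on the log2 scale, beside 0.0697 over all genes.

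**Figure D1:**
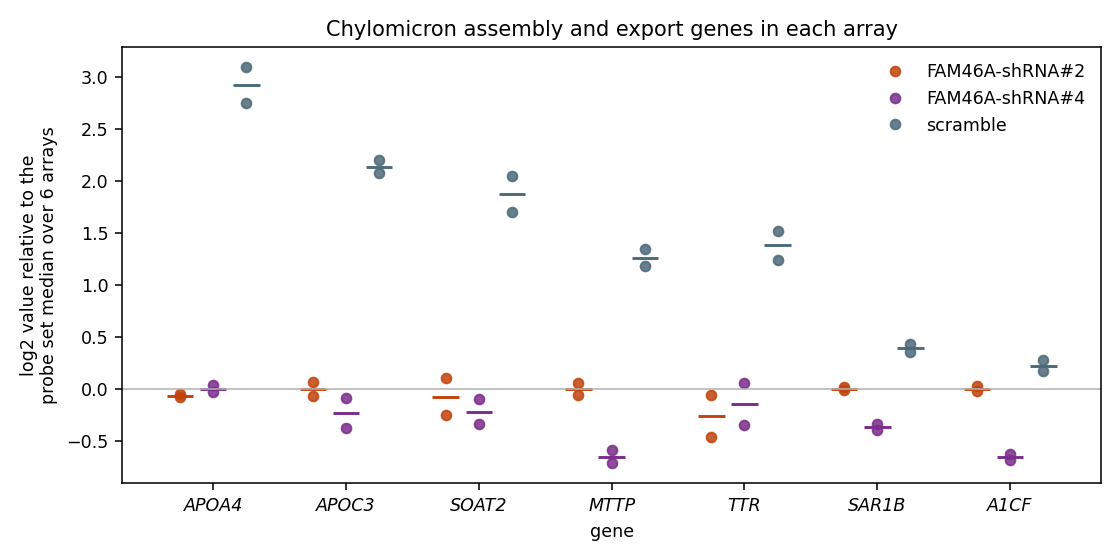
Log2 value with the probe set median of the 6 arrays subtracted (vertical axis) for each gene, with 1 point per array and a short line at each group mean, for shRNA#2, shRNA#4 and scramble from left to right. Scramble is the highest group for each of the 7 genes, and MTTP, SAR1B and A1CF also separate shRNA#4 from shRNA#2.

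**Figure D2:**
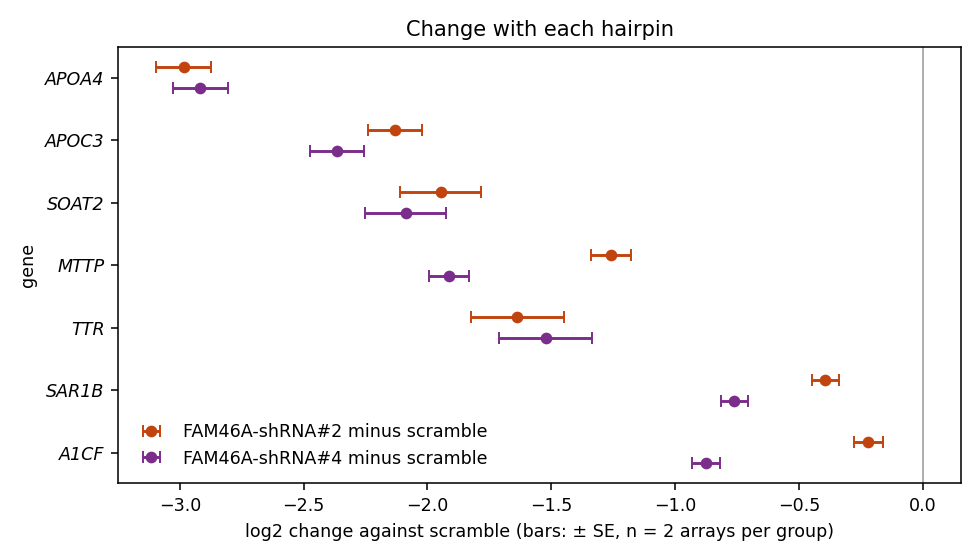
Log2 change against scramble with shRNA#2 and with shRNA#4 for the 7 genes, with bars of ± SE from the limma fit (n = 2 arrays per group). With shRNA#2 the changes run from -2.98 for APOA4 to -0.22 for A1CF.

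MTTP, SAR1B and A1CF were higher with shRNA#2 than with shRNA#4, and the other 4 genes did not pass the test between the hairpins. This contrast was not the ground for choosing the genes, and with equal group sizes its coefficients are orthogonal to those that set both hairpins together against scramble. They are not orthogonal to those of each hairpin singly against scramble. The genes were also chosen with earlier results of these data known, so full independence from the choice is not shown. The count of 3 of 7 stands beside 15.3% of all genes called, 6.64% higher and 8.63% lower with shRNA#2.

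MTTP stood 0.65 ± 0.0814 higher with shRNA#2 than with shRNA#4 on the log2 scale (1.57-fold, 95% interval 0.456 to 0.853, limma adjusted p = 0.00582). A1CF stood 0.66 ± 0.0576 higher with shRNA#2 than with shRNA#4 on the log2 scale (1.58-fold, 95% interval 0.516 to 0.796, limma adjusted p = 0.00269). SAR1B stood 0.37 ± 0.0534 higher with shRNA#2 than with shRNA#4 on the log2 scale (1.29-fold, 95% interval 0.237 to 0.498, limma adjusted p = 0.00899). The calls of MTTP and A1CF held in each of 16 alternative analyses, the leaving out of each array included, with limma adjusted p-values of at most 0.0427 and 0.0234. That of SAR1B ended without replicate 1 of shRNA#2 (limma adjusted p = 0.0532), without its replicate 2 (0.0560) and without replicate 2 of shRNA#4 (0.0517).

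APOA4 differed between the hairpins by -0.066 (95% interval -0.336 to 0.204, limma adjusted p = 0.808) and APOC3 by 0.23 (-0.0329 to 0.499, 0.238). SOAT2 differed by 0.14 (95% interval -0.257 to 0.541, limma adjusted p = 0.690) and TTR by -0.12 (-0.573 to 0.342, 0.799). The intervals of APOC3, SOAT2 and TTR reach beyond the size of the difference in SAR1B, so an equal response to the hairpins is not shown. The arrays of the hairpins did not overlap for 5 of 7 genes, and for 54.5% of all genes.

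**Figure D3:**
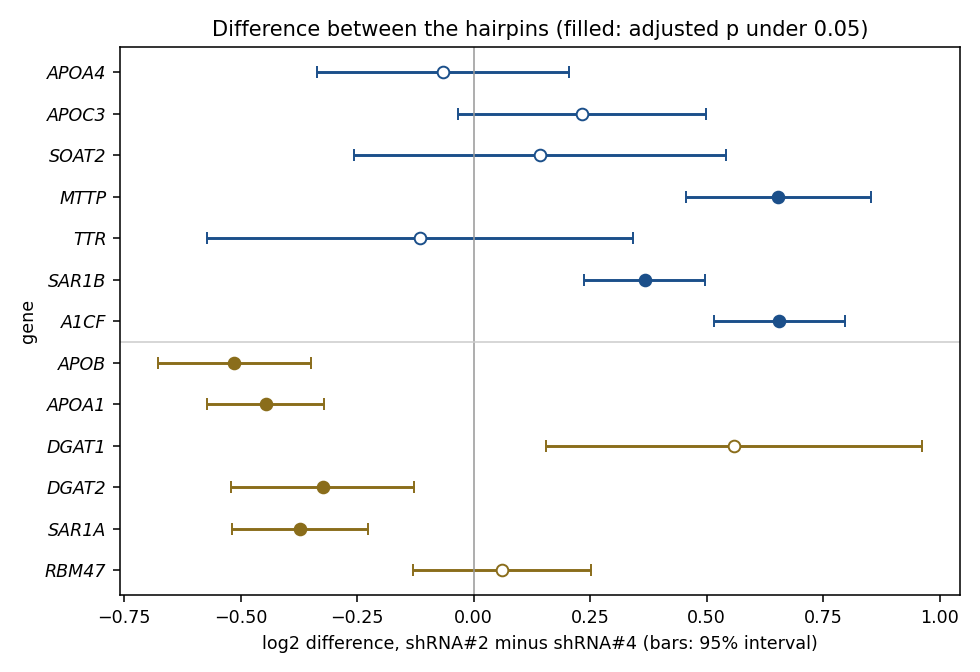
Log2 difference, shRNA#2 minus shRNA#4, with its 95% interval for the 7 genes and for 6 partner genes of the pathway. Filled points passed the test (limma adjusted p under 0.05). MTTP, SAR1B and A1CF lie right of 0, while APOB, APOA1, DGAT2 and SAR1A lie left of it. DGAT1 (0.56) and RBM47 (0.06) also lie right of 0 and did not pass. The 6 partner genes are a selection from the lists.

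Upstream sequence is shown for the 4 genes that the RefSeq promoter table holds, since 3 of them, MTTP, SAR1B and A1CF, differed between the hairpins and APOA4 was not called. Each line gives the 250 bases before an annotated start (GRCh38.p14), 5′ to 3′ on the strand of the gene, with motif matches in capitals. MTTP has 2 starts in the table, and the downstream one is shown. The windows are chr4:99574574-99574823 (plus strand) for MTTP, chr5:134632829-134633078 (minus strand) for SAR1B, chr10:50885628-50885877 (minus strand) for A1CF and chr11:116823305-116823554 (minus strand) for APOA4.
MTTP: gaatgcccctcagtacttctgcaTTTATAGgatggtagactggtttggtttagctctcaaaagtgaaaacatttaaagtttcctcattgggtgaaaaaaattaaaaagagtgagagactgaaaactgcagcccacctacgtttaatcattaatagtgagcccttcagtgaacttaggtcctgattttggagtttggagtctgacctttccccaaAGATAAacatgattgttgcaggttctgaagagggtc
SAR1B: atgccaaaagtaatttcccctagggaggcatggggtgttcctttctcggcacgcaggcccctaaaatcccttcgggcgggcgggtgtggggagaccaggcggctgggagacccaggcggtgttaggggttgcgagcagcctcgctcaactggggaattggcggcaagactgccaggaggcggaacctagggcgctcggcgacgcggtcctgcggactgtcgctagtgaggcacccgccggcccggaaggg
A1CF: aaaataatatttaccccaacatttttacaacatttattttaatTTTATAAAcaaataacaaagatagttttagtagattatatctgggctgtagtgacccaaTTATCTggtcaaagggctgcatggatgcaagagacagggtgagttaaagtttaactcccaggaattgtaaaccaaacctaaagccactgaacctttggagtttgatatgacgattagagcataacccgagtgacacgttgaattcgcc
APOA4: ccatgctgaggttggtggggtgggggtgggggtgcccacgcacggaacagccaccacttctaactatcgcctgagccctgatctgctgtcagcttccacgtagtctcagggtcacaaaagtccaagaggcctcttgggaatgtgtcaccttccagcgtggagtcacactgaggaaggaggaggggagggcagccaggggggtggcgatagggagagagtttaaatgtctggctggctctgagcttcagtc

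Motifs of factors known to act on liver and gut genes were searched on both strands. The letters were CAAAGTCCA and the looser CAAAGNNCA for HNF4, GTTAAT for HNF1, TTTATNG for CDX, AGATAA for GATA factors, TGTTTAC for FOXA and TATAAA for a TATA box. Counting from the annotated start, the MTTP window held a GATA match at -36 to -31 and a CDX match at -227 to -221 that overlaps a TATA match on the opposite strand. The A1CF window held a GATA match on the opposite strand at -148 to -143 and overlapping TATA matches at -205 to -200 and, on the opposite strand, at -207 to -202. The windows of SAR1B, APOA4 and the upstream MTTP start held none of these letters. Of the 35116 promoters in the table, 9.17% held the GATA letters, 8.93% the CDX letters and 10.7% the TATA letters. The share was 0.325% for the longer and 4.44% for the looser HNF4 letters, 6.23% for HNF1 and 2.98% for FOXA. The share of G and C was 40.0% in the MTTP window and 35.6% in that of A1CF, against 66.4% for SAR1B, 59.2% for APOA4 and a median of 58.0% over all promoters. A match is a string of letters and no evidence of binding. Only exact letters were searched, so a window without a match may still hold a variant site of these factors. Which MTTP start these cells use was not analysed here.

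Other genes, called pathway genes here, came from 9 lists of 190 genes, 111 of them measured, without the 7 genes. In 1 of the lists are chromosome 11 neighbours of APOA4 and APOC3, 9 of them measured. They are counted by position, whatever their function. With both hairpins averaged and set against scramble, 45 of the 111 fell and 14 rose (limma adjusted p under 0.05). That is 53.2% called, beside 25.4% of all genes, 10.6% lower and 14.8% higher. The lists were chosen with earlier results of these data known, so these shares are a description with no set test. The median change was -0.12, beside 0.00281 over all genes.

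Among the apolipoproteins, companions of APOA4 and APOC3, 10 of 14 measured fell and 1 rose, and 6 fell without replicate 1 of scramble. These counts are for the mean of both hairpins, and not each of the 10 was called with shRNA#2 alone. Against scramble, 8 of the 14 fell and 1 rose with shRNA#2, beside 21.6% of all genes called. With shRNA#4, 10 fell and 1 rose, beside 26.1%. The 8 with shRNA#2 include APOD (-0.85, limma adjusted p = 0.0303), which was not called for the mean of both hairpins (0.435). APOA2 was called for that mean, but changed by 0.062 with shRNA#2 (limma adjusted p = 0.63) and by -1.16 with shRNA#4 (0.000349). APOB, the scaffold that MTTP loads, had log2 values of -0.549 and -0.477 with shRNA#2 and of 0.0420 and -0.0420 with shRNA#4, against 0.977 and 1.11 with scramble. It fell by 1.30 ± 0.0581 (limma adjusted p = 0.000179). APOA1, the main apolipoprotein of high-density lipoprotein, fell by 1.46 ± 0.0446 (limma adjusted p = 0.000166), and APOH, a plasma glycoprotein that binds phospholipid, fell by 0.99 ± 0.135 (limma adjusted p = 0.00353). The 1 rise was that of APOO, which rose by 1.10 ± 0.0972 (limma adjusted p = 0.000914) and is known as a subunit of a mitochondrial inner membrane complex.

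APOB and APOA1 were lower with shRNA#2 than with shRNA#4, the reverse of MTTP, SAR1B and A1CF. The log2 difference of APOB was -0.51 (95% interval -0.677 to -0.350, limma adjusted p = 0.00660), a call that ended without replicate 1 of shRNA#2 (0.0501). That of APOA1 was -0.45 (95% interval -0.572 to -0.321, limma adjusted p = 0.00492). Over the 14 measured apolipoproteins 2 were called higher and 3 lower with shRNA#2, beside 6.64% and 8.63% of all genes. The 2 higher, in the direction of MTTP, were APOA2 (1.23, limma adjusted p = 0.00154) and APOM (0.53, 0.00997). Besides APOB and APOA1, APOD was lower (-1.24, limma adjusted p = 0.0123).

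APOA4 and APOC3 are neighbours on chromosome 11 (GRCh38.p14), at 116820700 to 116823304 and 116829907 to 116833072, with 6602 bases between them. From the start of APOA5 to the end of APOA1 the cluster of 4 apolipoprotein genes spans 48256 bases. In chromosome order, the changes with the mean of both hairpins were -0.22 ± 0.0405 for APOA5, -2.95 ± 0.0960 for APOA4, -2.25 ± 0.0945 for APOC3 and -1.46 ± 0.0446 for APOA1. APOA5, which promotes triglyceride clearance from plasma, changed least, and its call (limma adjusted p = 0.0104) ended without replicate 1 of scramble (0.0693). ZPR1 and SIK3, next to the cluster on either side, had changes of -0.15 ± 0.0665 and -0.16 ± 0.0692 that did not pass (limma adjusted p = 0.163 and 0.167). Taken by hairpin, SIK3 changed by -0.31 with shRNA#2 (limma adjusted p = 0.0416) and by -0.0072 with shRNA#4 (0.972). ZPR1 changed by -0.22 with shRNA#2 (limma adjusted p = 0.098) and by -0.083 with shRNA#4 (0.543). TAGLN, an actin-binding protein of smooth muscle, had log2 values of -0.297 and -0.161 with shRNA#2 and of 1.11 and 1.12 with shRNA#4, against -0.0408 and 0.0408 with scramble, so the shRNA#4 arrays stood alone. Of the 9 measured protein-coding genes from CADM1 to CEP164 that lie outside the cluster, 3 were called for the mean of both hairpins. They were TAGLN (limma adjusted p = 0.00260), CADM1 and BACE1. CADM1, a cell adhesion molecule, rose by 0.71 ± 0.119 (limma adjusted p = 0.00735), a call that ended without replicate 2 of scramble (0.05 after rounding, at the threshold). BACE1, the beta-secretase, fell by 0.37 ± 0.0728 (limma adjusted p = 0.0132), a call that ended without replicate 1 of scramble (0.0619). Neither is on the list of neighbours, and both are named after their values were seen. The other genes lie elsewhere, MTTP at chr4:99564130-99623997, SAR1B at chr5:134601149-134632828, A1CF at chr10:50799409-50885627, SOAT2 at chr12:53103486-53124535 and TTR at chr18:31591877-31598821.

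**Figure D4:**
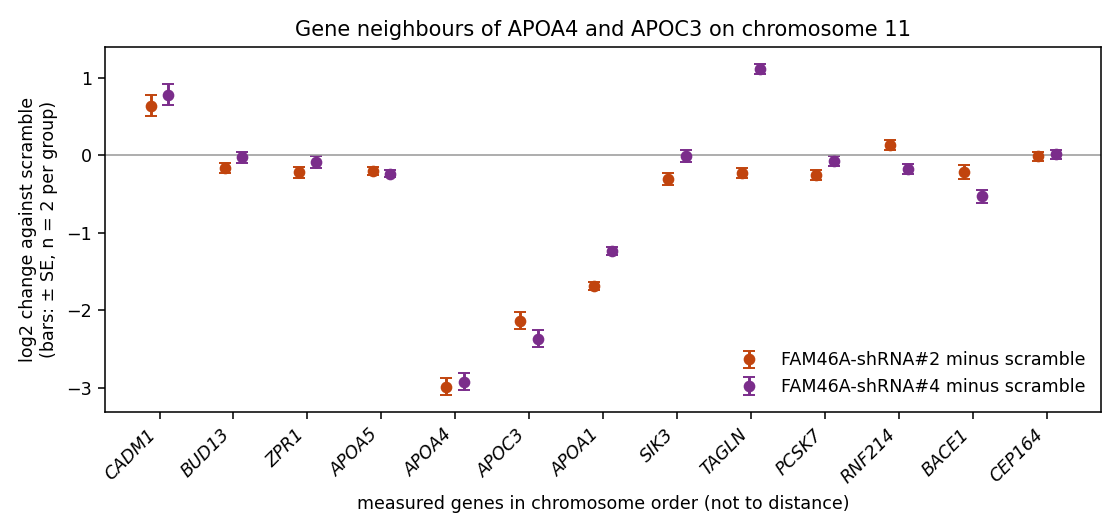
Log2 change against scramble with shRNA#2 and shRNA#4 (bars ± SE, n = 2 arrays per group) for the 11 measured protein-coding neighbours of APOA4 and APOC3 from CADM1 to CEP164 and for both genes, in gene order and not to distance. APOA4, APOC3 and APOA1 lie between -2.98 and -1.23 with either hairpin, and TAGLN stands at 1.11 with shRNA#4 and at -0.23 with shRNA#2.

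Of 16 measured genes that take up, esterify or store lipid, as SOAT2 does, 10 fell and 1 rose. Fewer of these lipid genes fell when any 1 array was left out. MOGAT3, a monoacylglycerol acyltransferase, had log2 values of -0.377 and -0.0718 with shRNA#2 and of -0.297 and 0.0718 with shRNA#4, against 1.39 and 1.27 with scramble. It fell by 1.496 ± 0.129 (limma adjusted p = 0.000839), and ACSL5, which activates fatty acids, fell by 1.13 ± 0.0838 (limma adjusted p = 0.000555). DGAT1, which completes triglyceride synthesis, fell by 1.35 ± 0.143 (limma adjusted p = 0.00155), and DGAT2, which catalyses the same step, fell by 1.15 ± 0.0696 (limma adjusted p = 0.000314). Between the hairpins DGAT1 differed by 0.56 (95% interval 0.156 to 0.962, limma adjusted p = 0.0774) and DGAT2 by -0.32 (-0.520 to -0.128, 0.0458). DGAT1 passed with the replicate number as a block (limma adjusted p = 0.00718) and without replicate 2 of shRNA#4 (0.0479). The call of DGAT2 ended without any 1 array except replicate 1 of shRNA#4 (limma adjusted p up to 0.191).

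Of 9 measured genes of lumenal assembly, the step of MTTP, 4 fell and 0 rose, and 4 had an unadjusted p under 0.05 in limma. PLTP, the phospholipid transfer protein, fell by 1.497 ± 0.0912 (limma adjusted p = 0.000320). TM6SF2, an ER membrane protein needed for full lipidation of apolipoprotein B particles, fell by 1.13 ± 0.0892 (limma adjusted p = 0.000656). CIDEB, which aids such lipidation in mouse liver, fell by 0.52 ± 0.0786 (limma adjusted p = 0.00502). SURF4, a cargo receptor of lipoproteins, fell by 0.26 ± 0.0431 (limma adjusted p = 0.00749), a call that ended without replicate 1 of scramble (0.0542).

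The COPII and ER-to-Golgi genes, the machinery of SAR1B, were divided, with 4 of 20 measured lower and 4 higher, and 2 higher without replicate 2 of scramble. SAR1A, the close paralog of SAR1B, had log2 values of 0.0337 and -0.0337 with shRNA#2 and of 0.408 and 0.337 with shRNA#4, against -0.0453 and -0.142 with scramble. SAR1A was highest with shRNA#4, with which SAR1B was lowest, and cross-hybridisation between the paralogs was not analysed here. With the mean of both hairpins it rose by 0.28 ± 0.0516 (limma adjusted p = 0.0105), a call that ended without replicate 2 of scramble (0.0656). Its difference between the hairpins was -0.37 (95% interval -0.518 to -0.227, limma adjusted p = 0.0120). That call ended without replicate 1 or 2 of shRNA#2 or replicate 1 of shRNA#4 (limma adjusted p = 0.0543, 0.0694 and 0.0601). VAMP7, a SNARE known from rat prechylomicron carriers, fell by 0.68 ± 0.0632 (limma adjusted p = 0.00102). KLHL12, an adaptor of the ubiquitin ligase that enlarges COPII coats, rose by 0.56 ± 0.0725 (limma adjusted p = 0.00287). Of the exit-site scaffolds, SEC16B fell by 0.54 ± 0.0659 (limma adjusted p = 0.00245) and SEC16A rose by 0.37 ± 0.0525 (limma adjusted p = 0.00390).

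Among 5 measured genes of APOB editing, partners of A1CF, 1 fell and 1 rose. RBM47, an RNA-binding protein that can serve with APOBEC1, fell by 0.32 ± 0.0680 (limma adjusted p = 0.0181). This call ended without replicate 1 of scramble (limma adjusted p = 0.0993), replicate 2 of shRNA#2 (0.0534) or replicate 2 of shRNA#4 (0.0513). HNRNPAB, which binds APOBEC1, rose by 0.47 ± 0.0403 (limma adjusted p = 0.000837). Between the hairpins 0 of the 5 passed in limma, and 3 had an unadjusted p under 0.05. APOBEC1 was not analysed here.

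Of 11 measured receptors, lipases and remodelling factors of lipoproteins, 4 fell and 2 rose. LRP1, which clears chylomicron remnants in liver, fell by 0.89 ± 0.0643 (limma adjusted p = 0.000519), and LRP2, or megalin, fell by 0.94 ± 0.115 (limma adjusted p = 0.00245). Their chaperone LRPAP1 fell by 0.47 ± 0.0489 (limma adjusted p = 0.00145), while VLDLR, a receptor of triglyceride-rich lipoproteins, rose by 1.14 ± 0.0783 (limma adjusted p = 0.000474).

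Of 7 measured genes of retinoid and thyroid hormone transport, partners of TTR, 3 fell and 1 rose. ALB, which also carries thyroid hormone, fell by 1.42 ± 0.128 (limma adjusted p = 0.000945), and RDH10, a retinol dehydrogenase, fell by 1.08 ± 0.0745 (limma adjusted p = 0.000474). The retinal reductase DHRS3 fell by 0.46 ± 0.0459 (limma adjusted p = 0.00127), with changes of -0.20 with shRNA#2 and -0.72 with shRNA#4. CRABP2, a retinoic acid binding protein, rose by 0.54 ± 0.0636 (limma adjusted p = 0.00218). Of 7 measured hepatocyte markers, ALB among them, 5 fell and 0 rose, with a median change of -1.15 and 5 at an unadjusted p under 0.05 in limma.

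Among 22 measured transcription factors and cofactors known to act on such genes in liver or gut, 9 fell and 3 rose. Fewer of these regulators fell when any 1 array was left out. CREB3L3, an ER-bound factor known to act on apolipoprotein genes in mouse, had log2 values of -0.249 and 0.0452 with shRNA#2 and of -0.188 and -0.0452 with shRNA#4, against 1.43 and 1.23 with scramble. It fell by 1.43 ± 0.103 (limma adjusted p = 0.000504), and MLXIPL, a carbohydrate-responsive factor, fell by 0.68 ± 0.107 (limma adjusted p = 0.00581). PROX1, a homeobox factor that can repress HNF4A targets, rose by 0.99 ± 0.0974 (limma adjusted p = 0.00123), and the forkhead factor FOXA2 rose by 0.60 ± 0.0646 (limma adjusted p = 0.00158). HNF4A was not analysed here.

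**Figure D5:**
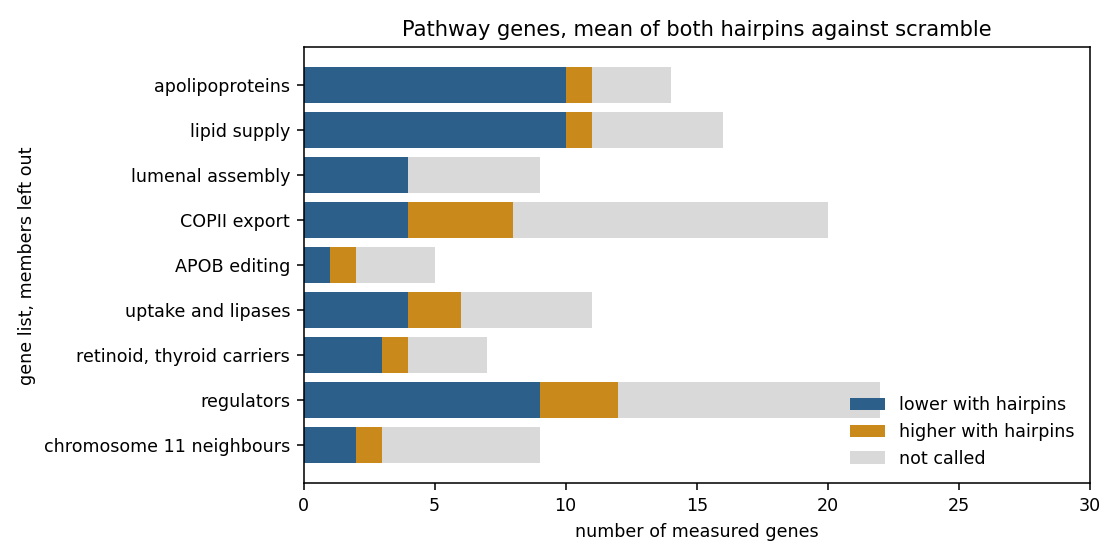
Number of measured genes in each of 9 pathway lists (the 7 genes left out) that were lower, higher or not called with both hairpins averaged and set against scramble (limma adjusted p under 0.05). Falls outnumber rises in the lists of apolipoproteins (10 and 1) and lipid supply (10 and 1), and the COPII list is evenly divided (4 and 4). The lists were chosen with earlier results of these data known.

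Between the hairpins 24 of the 111 pathway genes passed, 11 higher and 13 lower with shRNA#2 than with shRNA#4. That is 21.6%, beside 15.3% of all genes. The count was 10 without replicate 1 of shRNA#2, 15 without its replicate 2 and 14 without replicate 2 of shRNA#4.

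Genes whose 6 values most resembled the mean of the 7 genes were sought by Pearson's r among genes with a range of at least 1 on the log2 scale. Such a range was found for 614 genes, and those of the 7 among them were left out of this search. The 10 most alike were GPR160, C3, GSN, NAAA, ASTE1, MIR194-1, PHLPP2, TPP1, GNRH2 and MIR215, with r over the 6 arrays between 0.999 for GPR160 and 0.994 for MIR215. The 6 points fall into 3 groups with scramble apart, and r is given as a description with no test. C3, a complement protein, had log2 values of -0.126 and 0.126 with shRNA#2 and of -0.340 and -0.241 with shRNA#4, against 1.58 and 1.81 with scramble. The miRNA gene MIR215 had log2 values of -0.0452 and 0.0452 with shRNA#2 and of -0.167 and -0.244 with shRNA#4, against 1.57 and 2.02 with scramble. Both thus had shRNA#4 lowest and scramble far above both hairpins. Taken singly, APOA4 was most like SNX4 (r = 0.997), APOC3 was most like PHLPP2 (r = 0.999), MTTP was most like GOLGA2P5 (r = 0.998), and SAR1B was most like RGN (r = 0.999). SOAT2 was most like MELTF (r = 0.996), TTR was most like ANO9 (r = 0.998), and A1CF was most like DENND11 (r = 0.995).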

How the data were processed

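RNA of 2 arrays per group was labelled with the WT PLUS kit, per the labels' protocols. The values are log values that the authors deposited relative to each probe set's median, as the values themselves show, and log2 was assumed. How probe sets were summarised and normalized, with which software and in which log base, was not given in the sources used here. The number of arrays limits precision, and centred values show no signal over background.

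Of 48144 probe sets, 16098 carried 1 symbol, 0 several and 32046 none, and those of 1 gene were averaged. In limma 3.58.1 (R 4.3.3) 1 linear model took all 14884 genes and the 6 arrays in 3 groups, with no trend in the variance prior. Genes with a Benjamini-Hochberg adjusted p under 0.05 were called. The procedure was tested on simulated data. The pathway genes named are up to 4 called genes in each list, by size of the change averaged over hairpins, and APOB, APOA1, RBM47 and SAR1A whatever their values, while APOBEC1, HNF4A, P4HB and RBP4 of the same rule were not analysed here. The 10 genes most alike followed that rule too, and ZPR1, SIK3, CADM1 and BACE1 are named as neighbours outside that rule. APOA2, APOM and APOD are also named outside it, after their values were seen. The 7 genes, the lists and the motifs were chosen with earlier results of these data known. The 16 alternatives included leaving out each array, a replicate block and quantile normalization.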

Additional observations from a re-analysis of the deposited data

Results flagged for a closer look

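With 2 arrays per group no array could be examined as an outlier of its group. The hairpins differed, by the test of shRNA#2 against shRNA#4 (limma adjusted p under 0.05), in 3 of the 7 genes and in 8 of the pathway genes named by the rule above. The 8 include TAGLN, a chromosome 11 neighbour counted by position. Of all genes 15.3% passed this test, and of the 111 measured pathway genes 21.6%. Higher with shRNA#2 than with shRNA#4 on the log2 scale were MTTP (0.65), A1CF (0.66), SAR1B (0.37) and DHRS3 (0.52). Of genes named outside the rule, APOA2 (1.23) and APOM (0.53) were higher and APOD (-1.24) was lower. Of those named by the rule, lower with shRNA#2 than with shRNA#4 were TAGLN (-1.34), VLDLR (-0.63), CRABP2 (-0.60), APOB (-0.51), APOA1 (-0.45), SAR1A (-0.37) and DGAT2 (-0.32). VLDLR had log2 values of -0.0297 and 0.0297 with shRNA#2 and of 0.570 and 0.693 with shRNA#4, against -0.944 and -0.707 with scramble. Its call between the hairpins ended without replicate 1 of shRNA#2 (limma adjusted p = 0.0597) or replicate 2 of shRNA#4 (0.0510).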

How the results depend on the processing

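Each of the 7 genes kept a negative change for the mean of both hairpins in the 15 alternatives that bear on it. Quantile normalization of the centred values gave a median change of -1.22 for the 7, against -1.59 as deposited, and the cause was not tested. Leaving out 1 array gave -1.72 to -1.51. Without replicate 1 and without replicate 2 of scramble, APOA4 had changes of -3.12 and -2.78, and A1CF of -0.50 and -0.60. Leaving out 1 array gave 2477 to 3358 genes called in limma for the mean of both hairpins, against 3784. Between the hairpins it gave 761 to 2166 genes, against 2272, and 10 to 24 pathway genes, against 24. At a limma adjusted p under 0.01 the counts were 2158 genes for the mean of both hairpins, and 769 genes and 12 pathway genes between the hairpins. With the replicate number as a block, 4160 genes were called for the mean of both hairpins, and 2637 genes, 33 pathway genes and 3 of the 7 genes between the hairpins. Of the genes named, the block added APOH (limma adjusted p = 0.0234) and DGAT1 (0.00718) between the hairpins, and SIK3 (0.0163). The labels give the replicates a number and no shared batch or day, and the replicate differences correlated across genes at 0.199, 0.179 and 0.119 between groups. Between the hairpins APOH was also called without either scramble array, and DGAT1 without replicate 2 of shRNA#4, while BACE1 (limma adjusted p = 0.0595 as fitted) was called without either scramble array.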
